A study of Mus musculus with 8 samples.

Results

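The genes described here are the Rab GTPases of membrane traffic and the proteins whose symbols derive from them, followed across the 4 groups of a macrophage array study. Members were all probes whose gene symbol begins with Rab and a digit. They numbered 95 of the 25697 probes on the array and stood for 63 of its 18138 gene symbols. Of these genes, 55 were Rab GTPases and 8 were Rab-binding proteins, such as Rab11fip5 and Rab3il1. A probe was tested where its detection p-value, the share of negative control probes brighter than it, was under 0.05 on at least 2 arrays. This left 74 Rab probes of 51 genes among 13868 probes tested. On all 8 arrays 57 Rab probes were detected, on 2 to 7 arrays 17 were, on 1 array 3 were, and 18 were detected on none.

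Rab proteins are small GTPases that mark the membranes of a cell and recruit the motors, tethers and fusion factors that move cargo between them. Exchange factors load a Rab with GTP and switch it on, GTPase-activating proteins switch it off, and GDI carries the inactive form through the cytosol. In macrophages the sequence from Rab5 on the early phagosome to Rab7 on the late one leads to fusion with lysosomes, while other Rabs carry receptors and cytokines to the surface or refill secretory organelles.

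Bone marrow from 8-week-old female mice was grown with GM-CSF (10 ng per ml) for 7 days. The mice were C57bl/6J, either wild type (WT) or iNOS deficient, and the methods give the latter as B6.129P2-Nos2tm1Lau/J. They lack the gene product in all cells, not in macrophages alone. Cells were unstimulated or received LPS (200 ng per ml) with IFN-γ (10 ng per ml) for 6 h, here called M1. There were 2 Illumina bead arrays for each of the 4 groups. Whether the arrays of a group stand for separate animals is not stated, so p-values measure the spread between arrays, which may be technical. Values are log2 intensities after scaling between arrays. Differences are log2 with the standard error (SE) and the adjusted p-value of limma, and a difference was called at an adjusted p under 0.05.

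Across the arrays 46.0% to 49.3% of all probes were detected. Replicate arrays differed by a median of 0.16 to 0.19 log2 units over tested probes, and by 0.13 to 0.16 over Rab probes. The number of arrays, 2 a group, limits the precision of every value. The Nos2 probe set M1 arrays apart from unstimulated arrays but did not check the genotype labels. It was undetected on all unstimulated arrays and read 7.45 and 7.04 on the WT M1 arrays against 7.51 and 7.68 on the M1 arrays labelled iNOS-/- (difference 0.35, SE 0.32, limma adjusted p = 0.406). Whether that probe lies outside the altered part of the gene was not established, so iNOS-/- below names the label. Macrophage markers were detected in all groups (8 of 9 on the array), and the 4 lymphocyte markers on the array were undetected on every array. Of the macrophage markers, 1 was called higher and 3 lower in unstimulated iNOS-/- than WT cells, and 3 higher and 4 lower in M1. Over all genes 34.0% and 50.2% were called in these comparisons. Marker lists of 3 other kinds of cell also moved with the groups. The log2 of the summed intensity of the 9 dendritic cell markers was 8.63 to 8.79 on WT unstimulated, 12.6 on WT M1, 12.2 on iNOS-/- unstimulated and 14.2 to 14.3 on iNOS-/- M1 arrays. That of the 8 dividing-cell markers on the array was 9.22 to 9.33, 10.9 to 11, 11.1, and 9.52 to 9.53 in the same order. For the 6 granulocyte markers on the array it was 10.1 to 10.2, 10.4 to 10.5, 10.7, and 11.9 to 12.0. Flt3, a defining dendritic cell marker, was undetected on all arrays. The dendritic cell sum was led by Il4i1, the brightest of those markers on all but the WT unstimulated arrays. Of the 8 dendritic cell markers tested, 7 were called higher and 0 lower in unstimulated iNOS-/- than WT cells. In M1, 4 were called higher and 1 lower in iNOS-/- than WT cells. The lower 1 was Cd209a (difference -4.96), undetected on both iNOS-/- M1 arrays, whereas Il4i1 was higher by 1.62. The part of these 3 kinds of cell in the Rab values was not tested. In bulk RNA fewer cells of a type and less RNA per cell cannot be told apart.

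After LPS and IFN-γ the called Rab probes were mostly lower in WT cells and mostly higher in iNOS-/- cells. In WT cells 24 of the 74 Rab probes were called, 6 higher and 18 lower in M1, where 35.1% of all tested probes were called (20.3% higher and 14.8% lower). In iNOS-/- cells 48 were called, 33 higher and 15 lower, against 50.0% of all probes (26.0% higher and 24.0% lower). The median Rab difference was -0.09 in WT cells and 0.41 in iNOS-/- cells, and over all probes it was 0.07 and 0.04. At least 2-fold, 14 and 26 Rab probes were called, against 15.1% and 28.8% of all probes. The arrays of the 2 states did not overlap at 55 and 66 Rab probes, against 71.2% and 77.1% of all probes. Quantile normalization, which gives all arrays the same distribution, and neqc, which also corrects the background first, were run as alternatives to the scaling. Under neqc and under quantile normalization, the median Rab difference was -0.12 and -0.16 in WT cells and 0.08 and 0.10 in iNOS-/- cells. Quantile normalization also moved the median of all probes in iNOS-/- cells from 0.04 to -0.13. The upward response of iNOS-/- cells thus kept its sign and was smaller under these scalings, with 28 and 26 probes called higher and 19 and 16 lower.

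Tested directly, the responses of the genotypes differed at 40 Rab probes, 29 with a higher and 11 with a lower response in iNOS-/- cells. Over all probes 42.0% were called, 20.6% higher and 21.4% lower. The median difference of response was 0.53 for Rab probes and -0.0022 for all. It was smaller for Rab probes under neqc (0.29, all probes 0.03) and quantile normalization (0.36, all probes -0.04). Changes of at least 2-fold were called at 30 Rab probes, against 27.9% of all probes. Both responses were called at 19 Rab probes, of which 10 moved the same way and 9 opposite ways, and over all probes both were called at 3236, of which 1111 moved opposite ways. These comparisons rest on the same unstimulated and M1 arrays. Among the 57 Rab probes detected on all arrays, the response was higher in iNOS-/- cells at 28 and lower at 7, against 26.4% and 23.7% of all probes detected on all arrays.

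**Figure D1:**
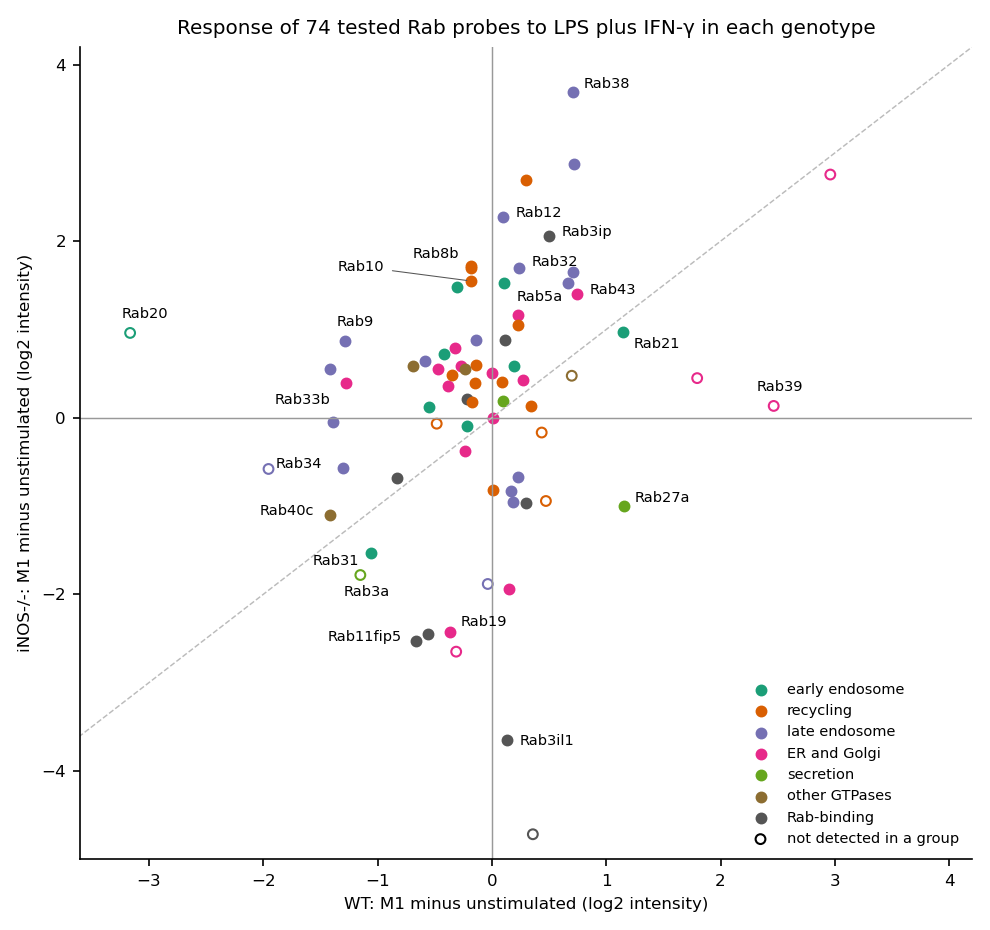
Response of the 74 tested Rab probes, as M1 minus unstimulated log2 intensity, in WT cells (horizontal axis) and iNOS-/- cells (vertical axis). Each point is a probe coloured by the role of its gene, open where the probe was undetected on both arrays of at least 1 group, and the dashed line marks equal responses. Most points lie above the dashed line, with Rab38 (0.71 and 3.69) highest, while Rab3il1, Rab11fip5 and Rab19 lie far below it.

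Between the genotypes, the called Rab probes were mostly lower in unstimulated iNOS-/- cells and more often higher than lower in M1 cells. In the unstimulated state 31 Rab probes were called, against 32.1% of all probes, and 27 of these were lower in iNOS-/- cells, against 16.1% of all probes. Their median was -0.37, where that of all probes was -0.02. Leaving out either iNOS-/- unstimulated array reduced the 31 to 20 and 18, without replicate 1 and replicate 2 respectively. Among M1 arrays 47 were called, 30 higher and 17 lower, against 48.5% of all probes (24.0% higher and 24.5% lower), with medians of 0.18 and -0.01. The split was nearer to even under neqc (26 higher, 19 lower) and quantile normalization (24 higher, 18 lower). Called differences of at least 2-fold numbered 12 unstimulated and 23 in M1, against 14.2% and 25.0% of all probes, and the genotypes did not overlap at 58 and 62 Rab probes, against 70.0% and 74.7%. Over group means of the 74 probes, WT M1 and iNOS-/- unstimulated were the closest of the 6 pairs of groups (median absolute difference 0.29, against 0.77 to 0.85 between iNOS-/- M1 and each other group). Over all tested probes the closest pair was the same, at 0.33.

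The 51 tested genes were grouped by textbook role, each represented by its probe with the highest mean. On this basis 17 genes were called for the WT response (4 higher, 13 lower), 33 for the iNOS-/- response (22 higher, 11 lower), 34 between the M1 groups (22 higher, 12 lower in iNOS-/-), 22 between the unstimulated groups (3 higher, 19 lower), and 28 for the difference of response (21 higher, 7 lower). Over all genes represented in this way, 36.5%, 51.6%, 50.2%, 34.0% and 43.6% were called. The split into higher and lower was nearer to even under the alternative scalings. For the iNOS-/- response it was 18 and 14 genes under neqc and 16 and 12 under quantile normalization. Between the M1 groups it was 17 and 13, and 16 and 13.

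**Figure D2:**
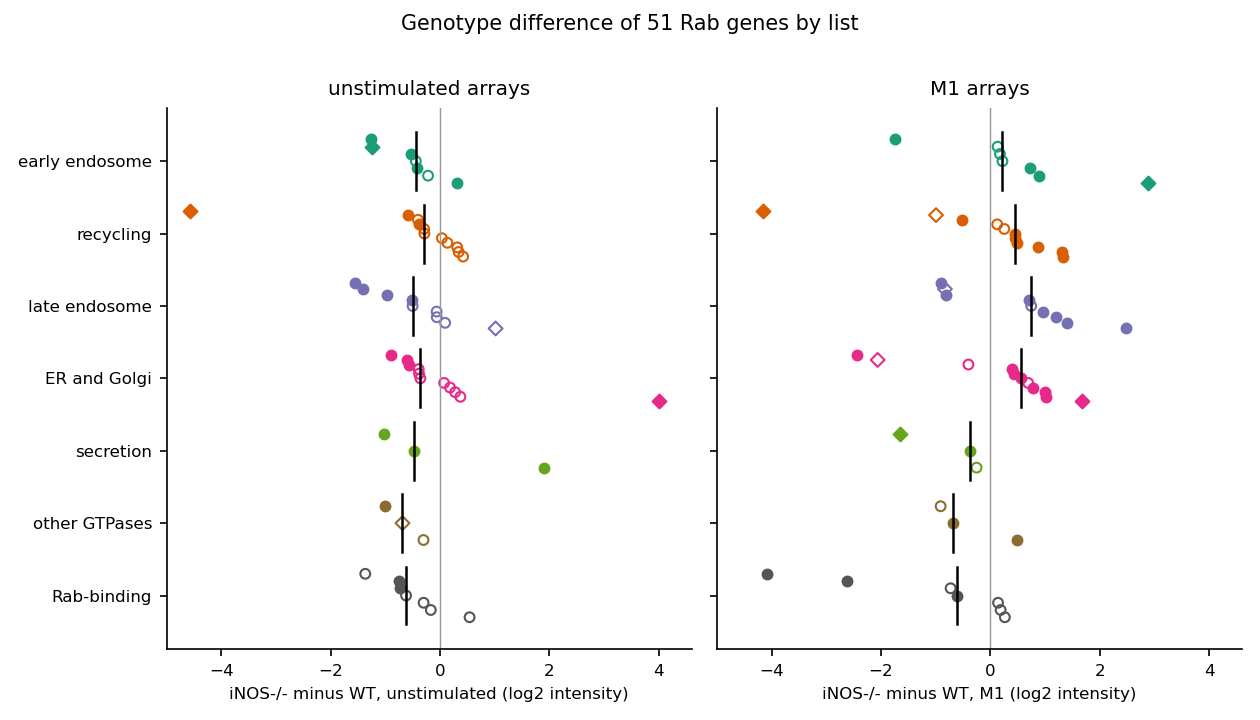
Log2 intensity of iNOS-/- minus WT arrays for 51 Rab genes in 7 role lists, unstimulated on the left and M1 on the right. Points are genes, filled where called, diamonds where 1 of the groups compared had no detected array, and the vertical bar is the median of the list. Among unstimulated arrays all 7 medians lie below 0, and among M1 arrays the first 4 lie above 0 and the last 3 below.

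Upstream sequences are shown for 4 genes that rose together in iNOS-/- M1 cells (Rab8b, Rab10, Rab5a and Rab32) and 2 that fell there (Rab19 and Rab31), so that the regulatory letters can be set beside the values. Each is the run of 250 bases before the RefSeq start (build GRCm38.p6), 5′ to 3′ on the strand of the gene. The windows are chr9:66919706-66919955, minus strand for Rab8b; chr12:3309970-3310219, minus strand for Rab10; chr17:53478984-53479233, plus strand for Rab5a; chr10:10558208-10558457, minus strand for Rab32; chr6:39381103-39381352, plus strand for Rab19; and chr17:65772753-65773002, minus strand for Rab31. Capitals mark matches on either strand to the motifs GAS (TTCNNNGAA), ISRE core (GAAA, any 2 bases, GAAA), kB-type (GGGA, any 4 bases, CC), E-box (CACGTG) and AP-1 (TGANTCA).
Rab8b: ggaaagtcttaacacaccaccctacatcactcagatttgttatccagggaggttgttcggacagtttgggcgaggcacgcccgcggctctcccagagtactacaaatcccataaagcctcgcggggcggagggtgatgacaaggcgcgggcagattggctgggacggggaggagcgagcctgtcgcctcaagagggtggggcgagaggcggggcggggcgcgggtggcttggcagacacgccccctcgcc
Rab10: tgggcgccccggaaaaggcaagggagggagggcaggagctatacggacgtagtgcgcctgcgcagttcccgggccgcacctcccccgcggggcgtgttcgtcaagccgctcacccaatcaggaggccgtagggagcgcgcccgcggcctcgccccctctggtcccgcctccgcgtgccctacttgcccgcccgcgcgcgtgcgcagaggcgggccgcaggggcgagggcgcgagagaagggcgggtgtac
Rab5a: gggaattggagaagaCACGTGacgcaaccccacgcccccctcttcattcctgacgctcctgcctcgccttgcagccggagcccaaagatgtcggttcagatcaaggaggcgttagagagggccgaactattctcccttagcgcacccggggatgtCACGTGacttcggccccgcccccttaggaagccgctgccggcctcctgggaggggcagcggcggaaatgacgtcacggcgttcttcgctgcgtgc
Rab32: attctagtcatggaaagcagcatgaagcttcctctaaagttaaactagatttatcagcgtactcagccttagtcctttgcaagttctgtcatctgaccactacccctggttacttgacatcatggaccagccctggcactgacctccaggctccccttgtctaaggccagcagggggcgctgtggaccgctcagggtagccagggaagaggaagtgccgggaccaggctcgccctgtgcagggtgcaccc
Rab19: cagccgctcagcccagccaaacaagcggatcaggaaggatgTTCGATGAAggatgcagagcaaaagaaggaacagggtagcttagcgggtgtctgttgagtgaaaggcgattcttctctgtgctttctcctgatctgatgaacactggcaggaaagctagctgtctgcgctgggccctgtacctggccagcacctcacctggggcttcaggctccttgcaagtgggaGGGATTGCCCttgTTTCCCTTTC
Rab31: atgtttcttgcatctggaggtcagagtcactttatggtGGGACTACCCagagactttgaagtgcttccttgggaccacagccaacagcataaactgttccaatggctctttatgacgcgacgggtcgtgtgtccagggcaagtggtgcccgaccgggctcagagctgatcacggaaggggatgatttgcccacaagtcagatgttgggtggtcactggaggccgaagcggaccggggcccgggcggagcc

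Matches were present in 3 of the 6 windows. Rab8b, Rab10 and Rab32 held no match. Rab5a held 2 E-boxes, which start 235 and 95 bases before the gene's start. Rab19 held a GAS match at 209 bases, a kB-type match at 23 bases and, on the reverse strand, an ISRE core match at 10 bases before the start, and Rab31 held a kB-type match at 212 bases. Matches in the windows shown did not overlap each other. The promoter table held 70 windows of 52 Rab genes. An E-box was present in 11.4% of them and in 6.02% of all 32851 windows. The other shares in Rab windows and in all were 7.14% and 7.02% for GAS, 1.43% and 2.98% for the ISRE core, 12.9% and 17.6% for kB-type and 2.86% and 6.75% for AP-1. A match describes these letters and is not a measured binding site.

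Of the 7 tested early endosome and phagosome genes, 4 rose and 1 fell in the iNOS-/- response, whereas 1 rose and 3 fell in the WT response. Under neqc and quantile normalization 3 rose and 1 fell in iNOS-/- cells. Over all genes 51.6% were called in the iNOS-/- response and 36.5% in the WT response. Rab5a, which drives fusion of early endosomes and the entry step of the phagosome, read 8.13 and 8.09 on WT unstimulated, 8.28 and 8.16 on WT M1, 7.59 and 7.58 on iNOS-/- unstimulated and 9.11 and 9.12 on iNOS-/- M1 arrays. The iNOS-/- M1 arrays were the highest and the iNOS-/- unstimulated arrays the lowest, without overlap with any other group. Its rise in iNOS-/- cells was 1.53 (SE 0.08, limma adjusted p = 0.000125), or 2.89-fold, and the WT response was 0.11 (adjusted p = 0.366). A further Rab5a probe gave a rise of 1.48 (SE 0.14, adjusted p = 0.000723). Rab5c, its paralog, rose by 0.72 in iNOS-/- cells and fell by 0.42 in WT cells (adjusted p = 0.00413 and 0.0398), but the rise was 0.10 under neqc and quantile normalization alike (adjusted p = 0.472 and 0.512), and the fall was not called with any single WT or unstimulated array left out (adjusted p between 0.0637 and 0.153).

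Rab31, which carries cargo between the trans-Golgi network and endosomes, fell in both genotypes. Its values were 10.47 and 10.33 on WT unstimulated, 9.34 and 9.35 on WT M1, 9.14 and 9.12 on iNOS-/- unstimulated, and 7.77 and 7.43 on iNOS-/- M1 arrays. The 4 groups did not overlap, with iNOS-/- below WT in each state. The fall was 1.06 in WT cells and 1.53 in iNOS-/- cells, and M1 values were 3.35-fold lower in iNOS-/- cells (difference -1.74, SE 0.14, adjusted p = 0.000532). The responses themselves differed by -0.47 without a call (adjusted p = 0.105). Under neqc and quantile normalization this difference was called, at -0.58 and -0.64 (limma adjusted p = 0.0140 and 0.0438). Rab21, an early endosome Rab that traffics integrins, rose in both genotypes: 6.33 and 6.23 on WT unstimulated, 7.38 and 7.48 on WT M1, 6.62 and 6.56 on iNOS-/- unstimulated and 7.54 and 7.59 on iNOS-/- M1 arrays. Its rise was 1.15 in WT and 0.98 in iNOS-/- cells, a difference of response of -0.18 (SE 0.12, adjusted p = 0.31). Rab20, which acts in phagosome maturation, was near background: it was detected on both WT unstimulated arrays at 3.12 and 3.21, on neither WT M1 array and on 1 iNOS-/- M1 array. The WT M1 level was at least 1.32-fold lower than the WT unstimulated level. The limma adjusted p of 5.96e-05 is that of the full difference, -3.17, with values under 1 set to 1. Under neqc the WT response was -0.49 (limma adjusted p = 0.00142). Rab20 counts among the 4 genes that rose in iNOS-/- cells (0.96), but was undetected there before stimulation. The rise was not called under neqc (0.12, adjusted p = 0.266), with an intensity trend (adjusted p = 0.273) or with a floor of 16. That floor lies above all WT values of Rab20, so the WT fall could not be called there.

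Among the 11 tested genes of recycling and delivery to the plasma membrane, 6 rose and 1 fell in the iNOS-/- response and 1 fell in the WT response. The shares called over all genes were 51.6% and 36.5%. The list's median iNOS-/- response was 0.39, and it was -0.01 under neqc and -0.12 under quantile normalization, so the direction of the list as a whole depended on the scaling. The same held between M1 groups, where the median was 0.45 and then -0.03 under both. Rab8b, which brings exocytic vesicles to the plasma membrane, stood at 12.04 and 12.13 on WT unstimulated, 11.79 and 12.01 on WT M1, 11.48 and 11.50 on iNOS-/- unstimulated and 13.23 and 13.19 on iNOS-/- M1 arrays. Both iNOS-/- M1 arrays lay more than 1 log2 unit above every other array. The rise in iNOS-/- cells was 1.72 (SE 0.10, adjusted p = 0.000169), the M1 difference 1.31 (2.49-fold, adjusted p = 0.000544) and the unstimulated difference -0.59 (adjusted p = 0.0111). With neqc the rise was 0.95 and still called (adjusted p = 1.37e-05), and the unstimulated difference lost its call without either iNOS-/- unstimulated array. The other Rab8b probe differed from the rise, the M1 difference and the unstimulated difference by less than 0.1 in each of the 3. Under neqc and quantile normalization alike the M1 difference of the first probe was 0.74 (limma adjusted p = 0.000108 and 0.00246).

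Rab10, a Rab of exocytosis known for carrying Toll-like receptor 4 to the macrophage surface, was measured by 2 probes. The brighter read 6.86 and 7.04, 6.73 and 6.80, 6.40 and 6.69, and 8.22 and 7.97 in the 4 groups, in the order used for Rab8b. The dimmer read 5.19 and 5.17, 5.66 and 5.30, 5.23 and 5.28, and 7.82 and 8.09. On both probes the iNOS-/- M1 arrays alone were high, and the other groups lay close together. M1 values were higher in iNOS-/- cells by 1.33 (SE 0.15, adjusted p = 0.00165) and 2.48 (SE 0.16, adjusted p = 0.000317), so the probes agreed in sign and not in size. Rab11a, which marks recycling endosomes, rose by 1.05 in iNOS-/- cells (adjusted p = 0.00419) from 5.28 and 4.86 to 6.14 and 6.10. Its WT arrays lay at 4.99 and 5.08 unstimulated and 5.15 and 5.37 in M1, below both iNOS-/- M1 arrays.

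Rab4a, a Rab of rapid recycling from early endosomes, was not detected in iNOS-/- cells in either state. It read 4.77 and 4.52 on WT unstimulated and 3.90 and 4.42 on WT M1 arrays, and it was undetected on all 4 iNOS-/- arrays. Unstimulated levels were at least 5.07-fold lower in iNOS-/- cells (adjusted p = 0.000141) and M1 levels at least 2.37-fold lower (adjusted p = 0.000188). These bounds hold for the scaling used, and under neqc the differences were smaller, at -1.19 and -0.79 log2. With a floor of 16 in place of 1 on the intensity scale, the M1 difference was no longer called. Rab4b, its paralog, was detected on all arrays and differed between genotypes by 0.34 unstimulated and 0.12 in M1 (adjusted p = 0.0629 and 0.381). Rab15 was the 1 member of this list that fell in iNOS-/- cells, by 0.82 (SE 0.10, adjusted p = 0.00155), from 6.64 and 6.54 to 5.85 and 5.70. The bright probes of Rab11b, Rab8a and Rab14 rose in iNOS-/- cells by 0.49, 0.60 and 0.39, but neqc gave -0.20, 0.00 and -0.12 for them, so no direction is drawn.

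Late endosome, lysosome and lysosome-related genes showed the largest median difference of response of the 7 lists, 1.23 over 9 tested genes, and 0.84 and 0.85 under neqc and quantile normalization. In iNOS-/- cells 6 rose and 1 fell, while in WT cells none rose and 3 fell, where 51.6% and 36.5% of all genes were called. Under neqc 5 rose and 2 fell in iNOS-/- cells, and under quantile normalization 5 rose and 1 fell. The 1.23 is the value of Rab7 by its brightest probe. That probe's iNOS-/- response was -0.0022 under neqc, and its WT fall was not shared by the other Rab7 probes. Rab38 and Rab32 are known for loading enzymes into melanosomes and other lysosome-related organelles. Rab38 read 4.07 and 3.75 on WT unstimulated, 4.34 and 4.90 on WT M1, 3.27 and 3.55 on iNOS-/- unstimulated and 7.21 and 6.98 on iNOS-/- M1 arrays. Only the iNOS-/- M1 arrays were clearly high. The rise there was 3.69 (SE 0.24, adjusted p = 0.000212), or 12.9-fold, and the other Rab38 probe gave 2.88 (adjusted p = 0.000611). In WT cells both probes gave 0.71 without a call (adjusted p = 0.0746 and 0.0903).

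Rab32 was 10.36 and 10.28 on WT unstimulated, 10.54 and 10.56 on WT M1, 10.31 and 10.20 on iNOS-/- unstimulated, and 11.99 and 11.91 on iNOS-/- M1 arrays. It was thus at a like level in all groups but iNOS-/- M1, where it was 2.64-fold higher than in WT M1 (difference 1.40, SE 0.09, adjusted p = 0.000303). Its rise in iNOS-/- cells was 1.70, and 1.08 with neqc (adjusted p = 5.00e-06). The M1 difference was smaller under neqc and quantile normalization, at 0.89 and 0.90 (limma adjusted p = 2.67e-05 and 0.00131). Rab12, which sends recycling cargo to lysosomes, lay at 6.39 and 6.48, 6.52 and 6.55, 5.65 and 5.27, and 7.75 and 7.73 in the same order of groups. The iNOS-/- arrays were the lowest before and the highest after stimulation, a rise of 2.28 (SE 0.14, adjusted p = 0.000174). Rab7l1, a partner of the kinase Lrrk2, rose by 0.88 in iNOS-/- cells (adjusted p = 0.000588) from 8.65 and 8.74 to 9.59 and 9.56. Rab24, which has a role in autophagy, fell by 0.82 (SE 0.14, adjusted p = 0.00576) from 8.48 and 8.69 to 7.71 and 7.81.

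Rab9 and Rab34 fell in WT cells and were already low in unstimulated iNOS-/- cells. Rab9, which returns receptors from late endosomes to the trans-Golgi network, read 8.32 and 8.62 on WT unstimulated, 6.95 and 7.41 on WT M1, 6.81 and 7.29 on iNOS-/- unstimulated and 7.99 and 7.86 on iNOS-/- M1 arrays. WT M1 and iNOS-/- unstimulated arrays overlapped, and both lay below the other groups. It fell by 1.29 in WT cells (SE 0.24, adjusted p = 0.0124) and rose by 0.87 in iNOS-/- cells (adjusted p = 0.0297), and the second probe gave -1.41 and 0.55. The WT call of the first probe was lost without WT unstimulated replicate 2 or WT M1 replicate 1 (adjusted p = 0.0586 and 0.0535), and the iNOS-/- call without unstimulated replicate 1 or either M1 array (adjusted p = 0.124, 0.111 and 0.0764).

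Rab34, which positions lysosomes and acts in phagosome maturation, was measured by 3 probes. The brightest read 7.43 and 7.33 on WT unstimulated, 5.96 and 6.18 on WT M1, 5.91 and 5.73 on iNOS-/- unstimulated, and 5.02 and 5.49 on iNOS-/- M1 arrays. The WT unstimulated arrays were the highest on all 3 probes. Unstimulated levels were lower in iNOS-/- cells by 1.55 to 2.52 on the log2 scale over the probes (adjusted p between 0.00106 and 0.00664). The WT response was a fall of 1.31 to 1.95, at the dimmest probe not called without WT unstimulated replicate 2 or either WT M1 array, and the iNOS-/- response was not called on any of them (-0.58 to -0.05). In GRCm38.p6 the gene lies on chromosome 11, as does Nos2, with 23 protein-coding genes between them. The name of the iNOS-/- line gives 129P2 as the source of the altered gene, so DNA of that strain can remain around Nos2. Its part in the Rab34 values cannot be told apart from that of the deficiency.

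**Figure D3:**
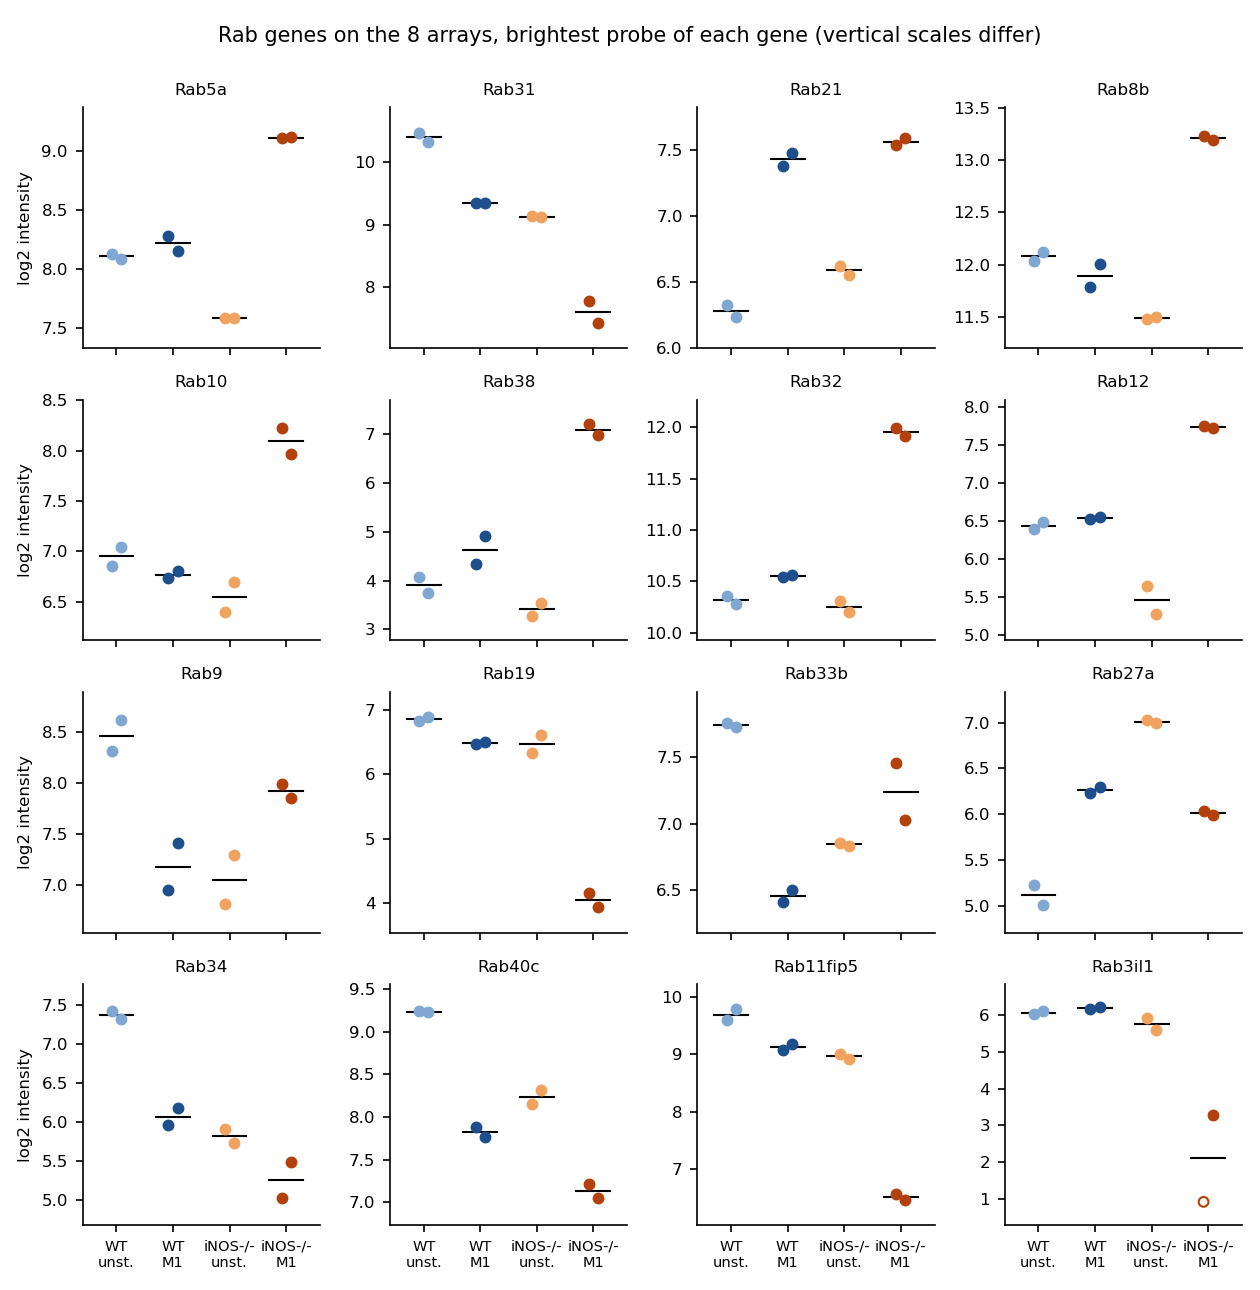
Log2 intensity of 16 Rab genes on each of the 8 arrays, by the brightest probe of each gene. Filled points are arrays on which the probe was detected, the open point is not, and lines are group means of 2 arrays, with a vertical scale for each gene. Rab8b, Rab10, Rab38, Rab32 and Rab12 are highest on iNOS-/- M1 arrays, Rab19, Rab11fip5 and Rab3il1 are lowest there, and Rab27a is highest on iNOS-/- unstimulated arrays.

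Of 11 tested ER and Golgi genes, 7 were higher and 1 lower in iNOS-/- M1 than in WT M1 cells, and neqc and quantile normalization gave 7 and 2. In the iNOS-/- response 4 rose and 1 fell. In the WT response 2 rose and 2 fell, although 1 of those that rose, Rab39, was undetected in both WT groups. Over all genes 50.2% were called between the M1 groups, 51.6% in the iNOS-/- response and 36.5% in the WT response. Rab19, a little-studied Rab placed at the Golgi, was 6.83 and 6.89 on WT unstimulated, 6.47 and 6.51 on WT M1, 6.33 and 6.61 on iNOS-/- unstimulated, and 4.15 and 3.93 on iNOS-/- M1 arrays. The iNOS-/- M1 arrays alone were low. In WT cells the response was -0.37 without a call (adjusted p = 0.0873). Under neqc and quantile normalization it was called lower (-0.43 and -0.50, limma adjusted p = 0.00775 and 0.0377). The fall in iNOS-/- cells was 2.43 (SE 0.13, adjusted p = 0.000127), or 5.39-fold. The other Rab19 probe fell by 1.94 and was detected on 1 of the iNOS-/- M1 arrays, and this call was lost in a fit of the 4 iNOS-/- arrays alone (adjusted p = 0.0664) and without unstimulated replicate 1 (adjusted p = 0.068).

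Rab33b, which works at the Golgi and on forming autophagosomes, read 7.75 and 7.73 on WT unstimulated, 6.42 and 6.50 on WT M1, 6.86 and 6.84 on iNOS-/- unstimulated, and 7.46 and 7.02 on iNOS-/- M1 arrays. It fell by 1.28 in WT cells (SE 0.15, adjusted p = 0.00319), and its response in iNOS-/- cells was 0.39 without a call (adjusted p = 0.0856), a difference of response of 1.67 (adjusted p = 0.00339). Rab43, a Golgi Rab also used in cross-presentation of antigen by dendritic cells, rose in both genotypes, from 6.13 and 6.28 to 6.97 and 6.93 in WT and from 6.64 and 6.51 to 7.83 and 8.12 in iNOS-/- cells. The rises were 0.75 (adjusted p = 0.0104) and 1.40 (adjusted p = 0.000665), the first not called without WT unstimulated replicate 1 (adjusted p = 0.0586). Rab6, which runs retrograde transport through the Golgi, rose in iNOS-/- cells by 1.16 (SE 0.16, adjusted p = 0.0028) from 7.46 and 7.23 to 8.71 and 8.31, while WT arrays lay between 7.21 and 7.52. The other Rab6 probes gave 0.42 (adjusted p = 0.047) and 0.59 without a call (adjusted p = 0.0814). Rab1 and Rab18, of traffic out of the ER and of lipid droplets, were lower in unstimulated iNOS-/- cells by 0.56 and 0.60 and higher in M1 by 0.55 and 0.42 (adjusted p between 0.00688 and 0.0381). The Rab18 differences lost their call when any of several arrays was left out, and the unstimulated Rab1 difference without iNOS-/- unstimulated replicate 1. Rab39 was detected on all 4 iNOS-/- arrays, at 3.89 to 4.15, and on no WT array. It was at least 2.83-fold higher unstimulated and at least 2.57-fold higher in M1 (adjusted p = 4.8e-05 and 0.000346), close to the detection limit. Under neqc these differences were smaller, at 0.83 and 0.66 log2.

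Only 3 genes of regulated secretion passed the filter, and their 3 patterns differed. Rab27a docks secretory lysosomes and exosome-bearing compartments at the plasma membrane. It read 5.22 and 5.01 on WT unstimulated, 6.24 and 6.30 on WT M1, 7.03 and 6.99 on iNOS-/- unstimulated, and 6.04 and 5.99 on iNOS-/- M1 arrays. No groups overlapped, and the unstimulated arrays of the genotypes stood at opposite ends. Unstimulated levels were 3.73-fold higher in iNOS-/- cells (difference 1.90, SE 0.10, adjusted p = 0.000273). Stimulation raised Rab27a by 1.15 in WT cells (adjusted p = 0.00119) and lowered it by 0.997 in iNOS-/- cells (adjusted p = 0.000911), which left M1 levels 0.25 apart without a call (adjusted p = 0.0952). The dendritic cell and dividing-cell markers were also higher on iNOS-/- than on WT unstimulated arrays, as given above, and their part in this difference was not tested.

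Rab3a, the Rab of regulated vesicle release in neurons, fell in both genotypes: 5.53 and 5.40 to 4.10 and 4.53 in WT cells, and from 4.53 and 4.35 to below detection on both arrays in iNOS-/- cells, where M1 values were at least 2.88-fold lower than unstimulated (adjusted p = 0.000646). Under neqc this last difference was smaller, at -0.77 log2, and with a floor of 16 its call was lost. Rab3d, of secretory granules, was 0.47 and 0.37 lower in iNOS-/- cells unstimulated and in M1 (adjusted p = 0.0223 and 0.0322), calls lost with most single arrays left out. All probes of Rab27b, Rab37, Rab3b and Rab3c were left untested, detected on at most 1 array. Of the other GTPases, Rab40c, a Rab joined to a SOCS box that recruits ubiquitin ligase, fell in both: 9.24 and 9.23 to 7.88 and 7.76 in WT and 8.16 and 8.31 to 7.21 and 7.05 in iNOS-/- cells. The falls were 1.41 and 1.10 (SE 0.11, adjusted p = 0.000706 and 0.000753), and they differed by 0.31 (adjusted p = 0.158).

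Of 7 tested proteins that bind Rabs, none was higher and 3 were lower in iNOS-/- M1 than in WT M1 cells (median -0.61, range -4.09 to 0.26), where 50.2% of all genes were called, and neqc and quantile normalization gave the same counts. Rab11fip5, an effector that links Rab11 endosomes to microtubule motors, read 9.60 and 9.79 on WT unstimulated, 9.08 and 9.18 on WT M1, 9.0 and 8.92 on iNOS-/- unstimulated, and 6.56 and 6.46 on iNOS-/- M1 arrays. The iNOS-/- M1 arrays alone were far below the rest. M1 values were 6.15-fold lower in iNOS-/- cells (difference -2.62, SE 0.11, adjusted p = 0.000144), and the second tested probe gave -2.49 (adjusted p = 0.000181). Those 2 probes overlap in the transcript, from bases 5914 and 5909, and are not independent readings.

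Rab3il1, an exchange factor of the Rabin family that acts on Rab3a and Rab8, dropped to the detection limit in iNOS-/- M1 cells. Its brighter probe read 6.02 and 6.11 on WT unstimulated, 6.18 and 6.21 on WT M1 and 5.92 and 5.60 on iNOS-/- unstimulated arrays, and 0.92 (undetected) and 3.29 on iNOS-/- M1 arrays. The other probe lay between 4.47 and 5.03 on the other arrays and was undetected on both iNOS-/- M1 arrays. By this probe M1 levels were at least 4.27-fold lower than in WT M1 (adjusted p = 0.000104), and the iNOS-/- response was a fall of at least 3.49-fold (adjusted p = 2.82e-05). Under neqc these differences were smaller, at -1.27 and -1.16 log2. Rab3ip, the related factor Rabin8, moved up in iNOS-/- cells by 2.05 (SE 0.48, adjusted p = 0.0177), from 2.62 and 1.49, the latter undetected, to 3.92 and 4.30. That call was lost without iNOS-/- unstimulated replicate 2 (difference 1.47, adjusted p = 0.0656) or without iNOS-/- M1 replicate 2 (1.86, adjusted p = 0.078), and with a floor of 16. Rab3gap2, a subunit of the complex that switches Rab3 off and Rab18 on, fell in both genotypes by 0.83 and 0.69 (SE 0.09, adjusted p = 0.00262 and 0.00252). Rab3gap1, the catalytic subunit, gave -0.22 and 0.21 without a call (adjusted p = 0.196 and 0.177).

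Several genes were read by more than 1 probe, 18 in all, and Rab7 was the only 1 of them whose probes were called in opposite directions. Rab7 drives the step from late endosome to lysosome. In WT cells the probe at base 1765 went from 11.37 and 11.46 to 10.94 and 10.72, a fall of 0.59 (SE 0.11, adjusted p = 0.0122) that was not called without WT unstimulated replicate 2, whereas the probe at base 60 went from 7.53 and 7.58 to 8.26 and 8.27, a rise of 0.71 (SE 0.08, adjusted p = 0.00265). The probe at base 50 gave 0.66 without a call (adjusted p = 0.0566). In iNOS-/- cells all 3 rose, by 0.64, 1.65 and 1.53 in the same order (adjusted p = 0.00573, 9.17e-05 and 0.00232). Under neqc the rise of the bright probe at base 1765 was 0.00 (adjusted p = 0.989), so the size of the Rab7 response differs by probe and its direction in WT cells is not settled here.

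**Figure D4:**
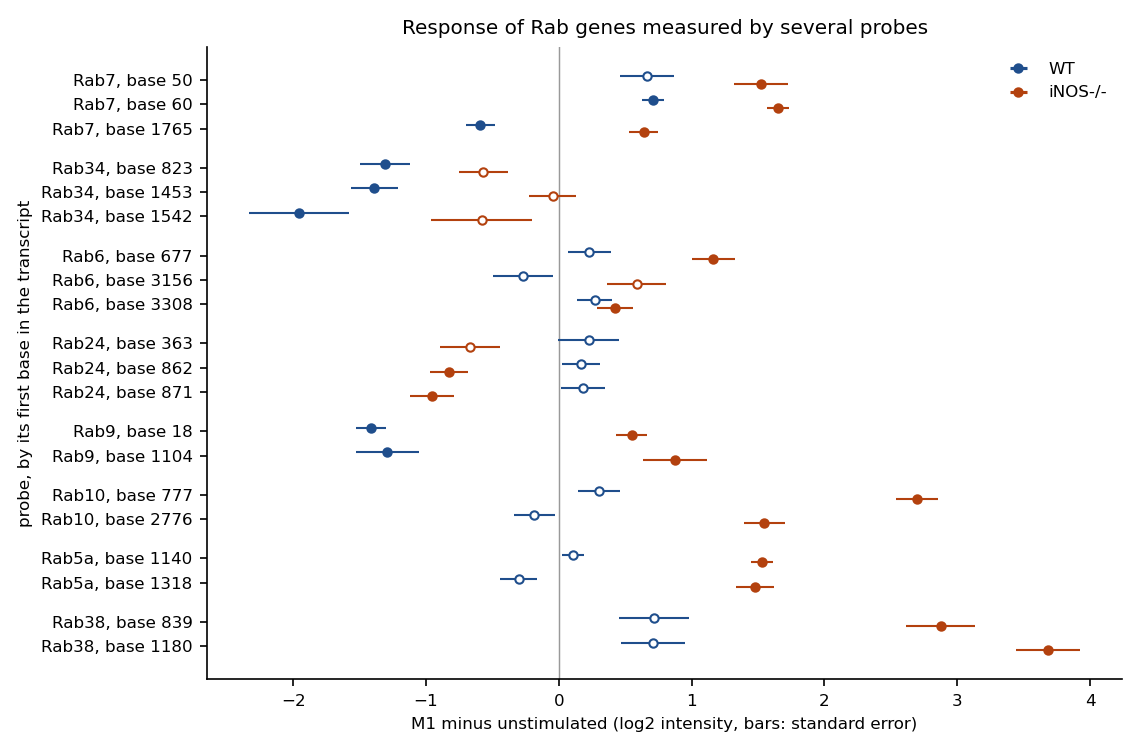
M1 minus unstimulated log2 intensity in WT (blue) and iNOS-/- cells (red) for each tested probe of 8 Rab genes, named by the first base of the probe in its transcript. Bars are standard errors and filled points were called. Within a genotype the probes of Rab34, Rab9, Rab24 and Rab38 lie on the same side of 0, with Rab38 at 2.88 and 3.69 in iNOS-/- cells, while the WT values of Rab7 fall on both sides of 0 and those of Rab10 in iNOS-/- cells lie 1.55 and 2.70 above it.

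The regulators and effectors of Rabs were followed in a list of 92 genes, of which 82 were on the array and 71 were tested. Between the M1 groups 22 were higher and 17 lower in iNOS-/- cells (median 0.01), and 15 and 14 rose and fell in WT and 26 and 15 in iNOS-/- cells. Over all genes 50.2%, 36.5% and 51.6% were called in these comparisons, near the shares of the list. Those with a large called increase between M1 groups included Lrrk2, a kinase of Rab8, Rab10, Rab12 and Rab7l1 (difference 1.78, SE 0.08, adjusted p = 0.00015), Tbc1d8 (1.69), Mon1b, part of the exchange factor of Rab7 (1.31), and Rabgap1 (1.31). Lrrk2 read 4.49 and 4.52 on WT unstimulated, 6.09 and 6.08 on WT M1, 5.22 and 5.20 on iNOS-/- unstimulated and 7.85 and 7.89 on iNOS-/- M1 arrays, with no overlap of groups. The 5 with the largest called decrease were Tbc1d2, which switches off Rab7 (-3.61, SE 0.14, adjusted p = 0.000124), the Rab5 effector Appl2 (-2.29), Vps39 of the HOPS tether that Rab7 recruits (-1.54), Tbc1d17 (-1.22) and Evi5 (-0.87). Tbc1d2 was at 9.71 and 9.47, 9.04 and 9.15, and 9.12 and 9.27 in the first 3 groups and at 5.38 and 5.59 on the iNOS-/- M1 arrays, which alone were low. The adjusted p of the other 7 named here lay between 0.000323 and 0.00421.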

How the data were processed

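RNA from 8 macrophage cultures (4 groups, 2 arrays each, grouped by the labels) was measured on Illumina mouse bead arrays. The authors deposited, as GenomeStudio wrote them, probe intensity (the mean of its beads) and a detection p-value, neither normalized between arrays. The file header names no background subtraction, yet undetected probes lie around 0, so no further subtraction was made. Scaling brought every array to the average of the 8 with a robust slope and no intercept (rlm, MASS 7.3.60.0.1) over probes of nearly unchanged rank. Values under 1 were set to 1 and log2 was taken. The 4 group means were fitted on all 8 arrays in limma 3.58.1 (R 4.3.3), with Benjamini-Hochberg adjustment over 13868 probes. Where a probe was undetected on both arrays of a group, the change is a bound: the bright mean against, per dim array, the higher of the probe's value and the lowest detected value. Such a bound holds for this scaling only, and neqc can give a smaller difference. The adjusted p beside a bound tests the full difference, with values under 1 set to 1, and not the bound. Members, role lists and the partner list were chosen with earlier results of these data known, and the role lists follow general knowledge. Members called at 2-fold or more, with both bright arrays detected, are given per array. Members outside this rule, such as Rab15, Rab11b, Rab3d and Rab4b, were named after their values were seen. The procedure was tested on simulated data. By Entrez identifier 59 of 63 genes matched the RefSeq table. Alternatives were neqc and quantile normalization, a floor of 16, other detection filters, the 4 arrays compared alone, a replicate block, an intensity trend, averaged probes and each array left out. Python 3.11.15 with matplotlib 3.10.9 drew the plots.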

Additional observations from a re-analysis of the deposited data

Results flagged for a closer look

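The response to LPS and IFN-γ differed between the genotypes, by limma's test of the difference itself (iNOS-/- minus WT response, log2, adjusted p under 0.05), at 40 Rab probes, where 42.0% of all probes did.

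It was higher in iNOS-/- cells by 2.98 and 2.16 at the Rab38 probes, 2.4 and 1.73 at Rab10, 2.18 at Rab12, 1.96 and 2.16 at Rab9, 1.9 and 1.88 at Rab8b, 1.78 and 1.42 at Rab5a, 1.67 at Rab33b, 1.46 at Rab32 and 1.34 at 1 of the Rab34 probes. Smaller differences of the same sign were 1.28 and 0.793 at Rab28, 1.23 and 0.943 at Rab7, 1.14 at Rab5c, 1.12 at Rab1, 1.02 at Rab18 and at Rab7l1, 0.933 at Rab6, 0.837 at Rab11b, 0.829 at Rab11a, 0.746 at Rab2a, 0.743 at Rab8a and 0.653 at Rab43.

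It was lower in iNOS-/- cells, by log2 differences of -2.15 at Rab27a, -2.09 and -2.06 at Rab19, -1.89 and -1.87 at Rab11fip5, -1.14 and -0.994 at Rab24 and -0.827 at Rab15.

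At the dimmer Rab19 probe (-2.09) and at 4 further probes a group was undetected on at least 1 array, so the size rests on values at or near background. The 4 were 4.13 at Rab20, -2.33 at Rab39, and -3.79 and -5.08 at Rab3il1. The differences at Rab11a, Rab43, that Rab19 probe and the brighter Rab3il1 probe (-3.79) lost their call with most single arrays left out, and so did those at Rab6, Rab2a and 1 Rab24 probe (-1.14) when 4, 3 and 1 of the 8 arrays, respectively, were each left out in turn. Under both neqc and quantile normalization the calls were lost at Rab11b (0.21 under each), Rab2a (0.269 and 0.273), Rab8a (0.0771 and 0.0777) and the Rab28 probe at 0.793 (0.316 and 0.321). Under quantile normalization alone they were lost at Rab5c (0.468) and the dimmer Rab19 probe (-2.03), and under neqc alone at Rab39 (-0.167). With a floor of 16, which lies above all WT values of Rab20, the Rab20 call was lost.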

How the results depend on the processing

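With only 2 arrays a group, each left out in turn, the count of Rab probes called ranged from 19 to 25 for the WT response, 43 to 49 for the iNOS-/- response, 42 to 48 between M1 groups, 18 to 31 between unstimulated groups and 34 to 44 for the difference of response. Only the fourth fell by over 1.5 times, to 20 without iNOS-/- unstimulated replicate 1 and 18 without replicate 2. Fitted on probes under the other alternatives, the counts were 19 to 32, 41 to 51, 42 to 55, 25 to 40 and 36 to 48. Replicate numbers were checked as pairs: replicate differences of the groups correlated across probes between -0.0375 and 0.0247. No shift shared by replicate number was thus seen, which cannot show whether equal numbers share an animal or a culture. With the replicate block the counts were 24, 48, 46, 30 and 39. The split into higher and lower calls moved by less than 10 percentage points under neqc and quantile normalization.

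Directions turned in these cases, and the cause was not tested. Under neqc and quantile normalization the iNOS-/- response was -0.199 and -0.2 for Rab11b, -0.117 and -0.118 for Rab14, and -0.00223 and -0.00225 for the Rab7 probe at base 1765. The M1 difference was -0.052 and -0.0522 for Rab11b and -0.0313 and -0.0316 for Rab8a. The difference of response turned for Rab43 at its dim probe (1.1 with neqc, 0.136 with quantile, 1.55 with a floor of 16), for Rab3a (0.111 with neqc, 0.711 with a floor of 16) and for Rab39 (0.0807 with a floor of 16). Signal near background limits Rab20, Rab39, Rab4a, Rab3a, Rab3il1 and the dim Rab43 probe.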
